A study of Mus musculus with 15 samples.

Results

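Genes for histone methylation, histone acetylation and ATP-dependent chromatin remodelling were followed in 15 mouse brainstem RNA-seq libraries. They were chosen by symbol, as the Kmt2, Kdm, numbered Setd, Ehmt, Chd, Arid, Smarc and Hdac genes together with Ep300, Ep400 and Crebbp. This gave 77 of the 57180 gene identifiers in the count tables. The choice was made with earlier results of these data known, so the shares of members called are a description only. The AMPK experiment compared brainstem of newborn wild-type (WT) littermates with AMPKα2-/- mice, which lack the catalytic α2 subunit of AMP-activated protein kinase. The Lmx1b experiment compared prenatal brainstem of WT, Lmx1b+/- and Lmx1b-/- mice, in which the gene for the LIM-homeodomain transcription factor LMX1B is lost from 1 or both alleles and for which the null genotype is lethal. Each of the 5 groups had 3 libraries, made from polyA RNA. How each allele was made, the embryonic day, the sex and the number of animals behind a library were not given in the sources used here, so the p-values below measure only the spread between these libraries, which may be technical.

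Histone methyltransferases and acetyltransferases place marks on histone tails, demethylases and deacetylases remove them, and remodelling ATPases slide or evict the nucleosomes that carry them. The KMT2A to KMT2D and SETD1 enzymes methylate H3K4 at enhancers and promoters. The EP300 and CREBBP co-activators acetylate H3K27, and the BAF (SWI/SNF), ISWI and CHD complexes open or space nucleosomes during neural differentiation. Many of these genes are dosage sensitive in people, and loss of a single copy of KMT2D, KMT2A, CHD7, ARID1B, SETD5 or CREBBP causes a neurodevelopmental syndrome.

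The AMPK libraries held 14975095 to 17384171 counts, except WT 2 with 291212 and AMPKα2-/- 3 with 335986, and the Lmx1b libraries held 28833130 to 37441679. A gene could go undetected below 9.98 CPM (counts scaled to a common library size) in WT 2 and below 9.07 CPM in AMPKα2-/- 3, the level of 3 counts, against 0.175 to 0.198 CPM in the other AMPK libraries, and these limits cover counting error only. The median member had 10 and 8 counts in the shallow pair, 453 to 738 in the other AMPK libraries and 1571 to 2908 in the Lmx1b libraries. Prkaa2, the gene of the α2 subunit, was at 21.9, 26.6 and 29.7 CPM in WT and 25.4, 22.3 and 12.1 CPM in the libraries labelled AMPKα2-/- (log2 fold change −0.20, adjusted p = 0.659), so the counts did not separate the labels of this experiment, and whether they cover the deleted part of the gene is not known here. Lmx1b was at 9.73 to 22.5 CPM in WT and 0.848 to 1.45 CPM in Lmx1b-/- (log2 fold change −3.82, adjusted p = 0.00287), while Lmx1b+/- at 30.5, 11.9 and 14.2 CPM did not differ detectably from WT (log2 fold change 0.23, adjusted p = 0.618). Summed hindbrain markers stood at 110 to 357 CPM in all 15 libraries against 0.264 to 45.3 CPM for forebrain markers.

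Members differed widely in level within WT brainstem, which is compared here per length, in the deposited RPKM, read counts scaled to gene length and library size. In newborn WT the highest were Smarcc2, the BAF170 scaffold of BAF complexes, at 49.5 ± 4.64 RPKM (SD, n = 3), Chd3, a NuRD remodeller, at 36.9 ± 6.26, and Hdac11, the class IV deacetylase, at 27.1 ± 7.26 RPKM. In prenatal WT, Smarcc2 at 56.9 ± 10.4 and Chd3 at 54.6 ± 10.7 RPKM were again at the top and did not differ beyond their spread, followed by Smarca4, the BRG1 ATPase, at 38.2 ± 4.90 RPKM and Hdac2, a class I deacetylase, at 35.8 ± 9.02, which also overlapped within their spread. At the other end Arid3c, an ARID transcription factor, was at 0.012 and 0.277 RPKM in newborn and prenatal WT. The members were long by the gene length implied by counts and RPKM, with a median of 8225 bases against 3927 over all genes tested in the AMPK experiment. The median GC content of their longest transcripts was 51.4% against 49.4%. Together they took 0.278 to 0.524% of all counts in the AMPK libraries and 0.392 to 0.728% in the Lmx1b libraries.

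Of the 77 genes, 58 had a promoter window in the RefSeq table used here (GRCm38.p6), a stretch of 250 bases before to 50 after a gene start. Their median GC content was 65.5% and their median number of CpG was 26.5, against 52.7% and 7 over 27025 windows. A GC box (GGGCGG, counted on both strands) was found in 44 of 58, or 75.9%, against 35.9% of all windows. Other searches gave 13.8% of member windows against 9.12% of all windows for CCGGAAG, and 0% against 5.31% for the homeodomain core TAATTA, which says only that these letters were not in these windows. The 4 stretches below, each the 250 bases before the start and read 5′ to 3′ on the strand of the gene, are shown because Kmt2d and Kmt2a are the H3K4 methyltransferases that the results return to most and Hdac2 and Smarca1 are members that moved the other way. Capitals mark GC boxes on either strand. The Kmt2d stretch lies at chr15:98871206-98871455 on the minus strand, with 67.6% GC, 26 CpG and 4 GC boxes. That of Kmt2a lies at chr9:44881290-44881539, minus strand, with 76.8% GC, 29 CpG and 4 GC boxes. For Hdac2 the stretch is chr10:36974294-36974543, plus strand, with 68.8% GC, 27 CpG and 1 GC box. Smarca1 differed from these, at chrX:47892614-47892863 on the minus strand, with 56.4% GC, 6 CpG and 1 GC box.
Kmt2d: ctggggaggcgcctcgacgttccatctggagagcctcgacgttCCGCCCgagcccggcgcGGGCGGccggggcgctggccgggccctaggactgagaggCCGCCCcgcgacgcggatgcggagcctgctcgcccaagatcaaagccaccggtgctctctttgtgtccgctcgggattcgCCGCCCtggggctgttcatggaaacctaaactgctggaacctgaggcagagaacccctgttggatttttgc
Kmt2a: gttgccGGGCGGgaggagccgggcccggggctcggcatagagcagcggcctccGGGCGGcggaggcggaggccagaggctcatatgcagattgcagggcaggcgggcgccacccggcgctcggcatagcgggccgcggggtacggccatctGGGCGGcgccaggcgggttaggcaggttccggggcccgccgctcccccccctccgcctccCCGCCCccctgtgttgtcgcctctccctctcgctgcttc
Hdac2: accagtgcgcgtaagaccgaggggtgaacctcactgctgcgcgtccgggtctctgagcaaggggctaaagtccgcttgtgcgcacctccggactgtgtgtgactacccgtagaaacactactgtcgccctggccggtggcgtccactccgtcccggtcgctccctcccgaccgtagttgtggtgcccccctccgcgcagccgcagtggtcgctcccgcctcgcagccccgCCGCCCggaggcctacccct
Smarca1: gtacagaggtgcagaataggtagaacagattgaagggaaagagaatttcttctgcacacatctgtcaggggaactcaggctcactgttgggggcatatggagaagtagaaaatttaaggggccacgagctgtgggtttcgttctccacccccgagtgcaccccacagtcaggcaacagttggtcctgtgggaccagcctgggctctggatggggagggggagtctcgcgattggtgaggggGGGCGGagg

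In the newborn brainstem, chromatin genes were lower in the libraries labelled AMPKα2-/- than in WT. Of 75 members tested, 20 fell and 1 rose at an adjusted p below 0.05 (28.0%), against 8.94% of all 17397 genes tested, 5.17% lower and 3.77% higher (edgeR quasi-likelihood test, adjusted over all genes tested). The median log2 fold change was −0.45 for the members and −0.01 for all genes, and 62 of the 75 were negative. WT and AMPKα2-/- libraries did not overlap in 35 members, 31 of them lower, where 26.6% of all genes did not overlap and 12.7% were lower. Kdm5d, with more than 1 count in only 2 of the 6 AMPK libraries, and Arid3c did not pass the filter on low counts.

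**Figure D1:**
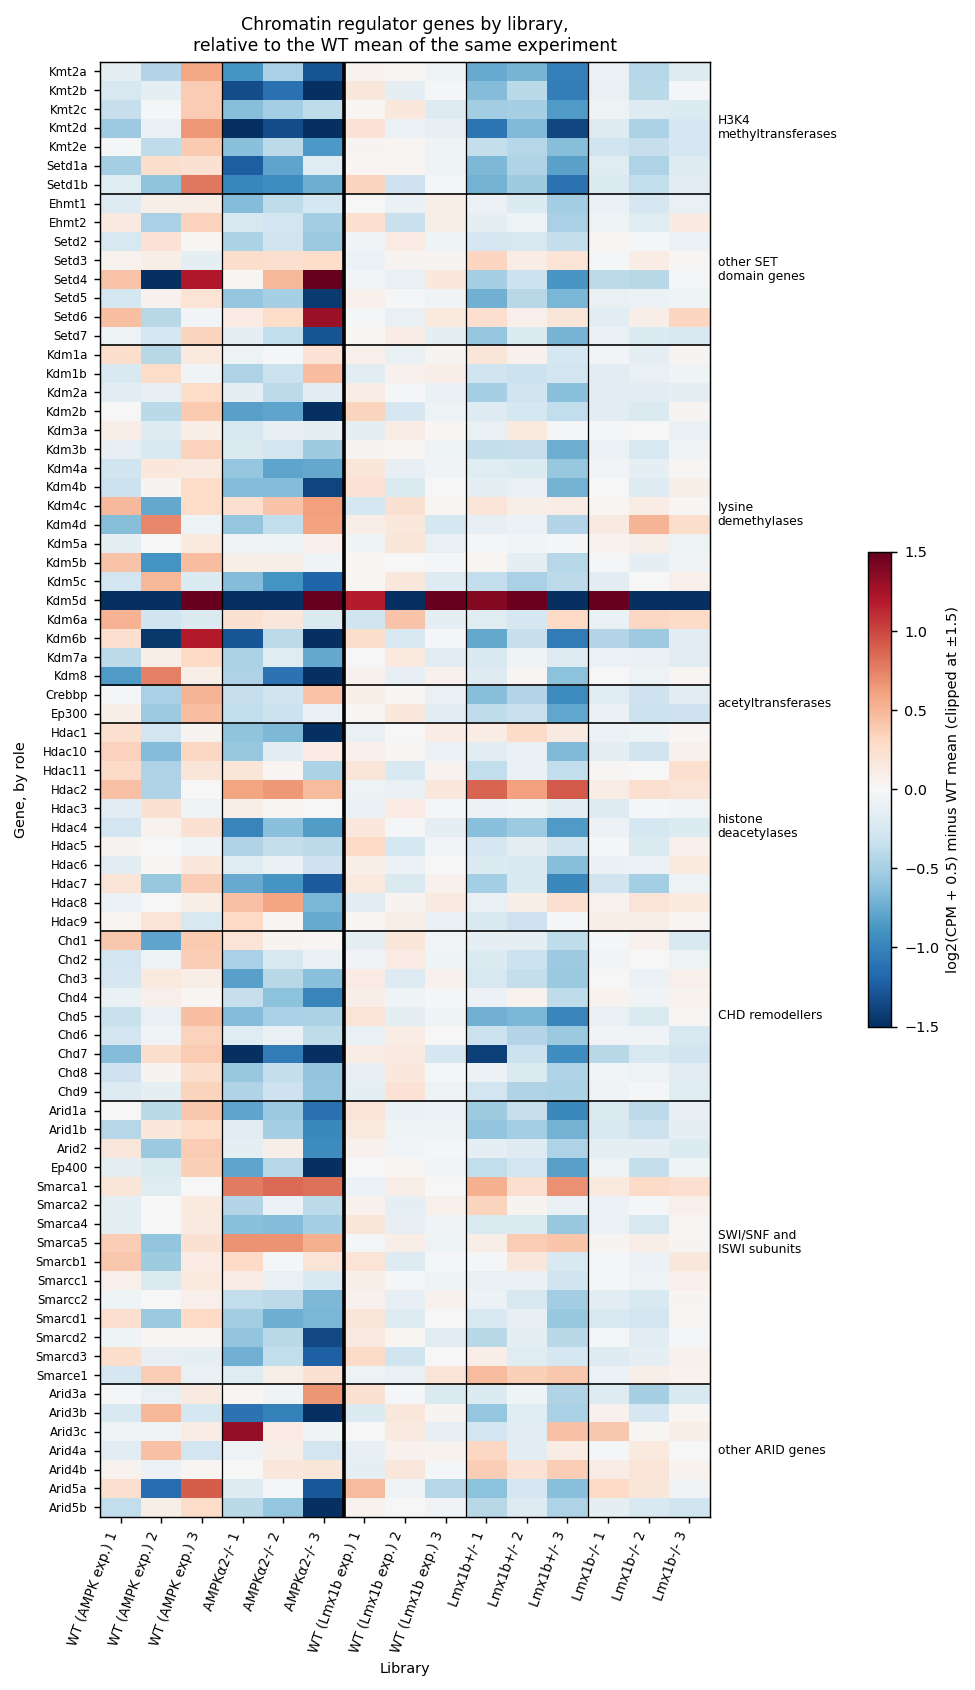
Each of the 77 genes in each of the 15 libraries, as log2(CPM + 0.5) minus the mean of the WT libraries of the same experiment, with genes ordered by role and the colour scale clipped at 1.5. The columns of the 3 libraries labelled AMPKα2-/- and of the 3 Lmx1b+/- libraries are mostly on the lower side, with member medians of −0.52 to −0.33 and −0.47 to −0.20, while those of Lmx1b-/- lie between −0.13 and −0.02.

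The H3K4 methyltransferases had the highest share of calls of any role. Of the 7 genes, 5 fell, all 7 were negative and their median log2 fold change was −0.93. Kmt2d, whose product (MLL4) monomethylates H3K4 at enhancers, was at 65.7, 89.8 and 152 CPM in WT 1 to 3 and 24.2, 38.1 and 30.2 CPM in AMPKα2-/- 1 to 3. Every library labelled AMPKα2-/- lay below every WT library, a 3.39-fold lower level (log2 fold change −1.76, SE 0.26, adjusted p = 0.000482). Kmt2b, the MLL2 enzyme of developmental promoters, was at 27.7, 29.9 and 43.1 CPM and 12.8, 14.9 and 9.07 CPM in the same order and again did not overlap, with 3 counts in AMPKα2-/- 3 (−1.36, SE 0.24, adjusted p = 0.00177). Kmt2a, which encodes MLL1 and maintains Hox gene expression, was at 94.7, 76.5 and 156 CPM in WT and 56.1, 74.3 and 42.3 CPM in AMPKα2-/-. WT 3 was the highest library and the groups were separate by a narrow margin (−0.91, SE 0.22, adjusted p = 0.0125). Setd1b, a catalytic subunit of the SET1 complexes for H3K4 trimethylation, was at 17.9, 13.3 and 35.7 CPM and 10.1, 10.5 and 12.1 CPM. All 3 labelled AMPKα2-/- lay below the lowest WT (−1.28, SE 0.29, adjusted p = 0.00803). That lowest WT library, WT 2, and AMPKα2-/- 3 each held 4 counts of Setd1b, so their order rests on scaling alone. Kmt2e, the MLL5 reader of H3K4 methylation that was counted in this role by its family, also fell (−0.68, SE 0.20, adjusted p = 0.0353). Kmt2c, the partner paralogue of Kmt2d at enhancers, had −0.59 (adjusted p = 0.0589) and Setd1a −0.93 (adjusted p = 0.0688), neither past the threshold.

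Among the 9 CHD remodellers 4 fell and all 9 were negative, with a median of −0.49. Chd7, mutated in CHARGE syndrome, was at 19.1, 36.6 and 39.6 CPM in WT and 10.4, 14.4 and 9.07 CPM in AMPKα2-/-. The groups were separate, with AMPKα2-/- 3 lowest, again at 3 counts (−1.31, SE 0.28, adjusted p = 0.00627). The ATPase genes of the NuRD complex also fell, with −0.62 for Chd5 (adjusted p = 0.0487), −0.60 for Chd3 (adjusted p = 0.0291) and −0.56 for Chd4 (adjusted p = 0.0458). Of the 15 SWI/SNF and ISWI genes, a group in which Ep400 was counted, 4 fell and 1 rose. Arid1a, the BAF subunit most often mutated in cancer, fell by 0.85 on the log2 scale (adjusted p = 0.0111), Smarcd1, which encodes BAF60A, by 0.82 (adjusted p = 0.0159), Ep400, the ATPase of the TIP60 complex, by 0.78 (adjusted p = 0.0274) and Smarca4 by 0.62 (adjusted p = 0.0233). The ISWI ATPase gene Smarca1 went the other way, from 17.2, 13.3 and 15.2 CPM in WT to 26.4, 27.8 and 27.2 CPM in AMPKα2-/-. Its groups were separate (0.76, SE 0.23, adjusted p = 0.0367), but the values in WT 2 and AMPKα2-/- 3 rested on 4 and 9 counts. Its paralogue Smarca5 had 0.45 (adjusted p = 0.158).

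Among the 11 deacetylase genes 2 fell. Both were in class IIa, whose 4 products shuttle between nucleus and cytoplasm and bind MEF2. Hdac4 was at 31.3, 39.9 and 45.1 CPM in WT and 19.0, 24.7 and 21.2 CPM in AMPKα2-/-, without overlap (−0.82, SE 0.22, adjusted p = 0.0237), and Hdac7 had −1.11, SE 0.27, adjusted p = 0.0128. None of the 4 class I genes, the catalytic subunits of co-repressor complexes such as NuRD, SIN3 and CoREST, passed the test, although 2 of them had an unadjusted p below 0.05. Hdac2 was at 62.2, 33.3 and 45.6 CPM in WT and 69.0, 71.5 and 63.5 CPM in AMPKα2-/-, every AMPKα2-/- library above every WT library, with 0.43 (adjusted p = 0.165), and Hdac1 had −0.85 (adjusted p = 0.0627). Of 17 demethylases tested 4 fell. Kdm6b, which removes H3K27 methylation, was at 11.9, 3.33 and 23.2 CPM in WT and 3.77, 7.45 and 0 CPM in AMPKα2-/-. Its groups overlapped, since WT 2, with 1 count, lay below AMPKα2-/- 1 and 2 (−1.60, SE 0.38, adjusted p = 0.0115). Kdm2b, Kdm5c and Kdm4a had −1.12, −0.71 and −0.67, with adjusted p of 0.0388, 0.0421 and 0.0498. Setd5, a SET-domain gene of intellectual disability, was the only call among the 8 other SET genes (−0.64, SE 0.20, adjusted p = 0.0447). The 6 other ARID genes tested had none. Neither Ep300 (−0.51, adjusted p = 0.125) nor Crebbp (−0.38, adjusted p = 0.307) passed.

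The number of calls depended on single libraries. Without WT 1 there were 35 member calls, without WT 2 13, without WT 3 2 (Kmt2b and Kmt2d), without AMPKα2-/- 1 12, without AMPKα2-/- 2 13, without AMPKα2-/- 3 6, and without both shallow libraries 0, with 33 members still at an unadjusted p below 0.05 and 6 calls over all genes by edgeR. Over all genes the calls without single libraries were 2958, 1060, 548, 921, 1440 and 605 in the same order, against 1555 with every library. Without both shallow libraries 3657 of all genes were at an unadjusted p below 0.05. The member median changed little without both shallow libraries, at −0.44, and was −0.24 without WT 3. Kmt2d and Kmt2b were called with any 1 library left out and Smarca1 in 1 of the 6 such fits. DESeq2 called 8, all lower (Kmt2a, Kmt2b, Kmt2d, Setd1b, Chd3, Chd7, Arid1a and Smarca4), and limma on log2 RPKM 0, with 30 below an unadjusted p of 0.05. Over all genes DESeq2 called 667 and limma 0, with 2840 below an unadjusted p of 0.05 in limma. WT 3 held 761 CPM of summed skeletal muscle markers against 5.88 to 14.7 CPM in the other AMPK libraries, and mitochondrial genes took 10.4 to 13.9% of counts in WT and 20.0 to 21.7% in AMPKα2-/-, and their part in these differences was not tested.

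**Figure D2:**
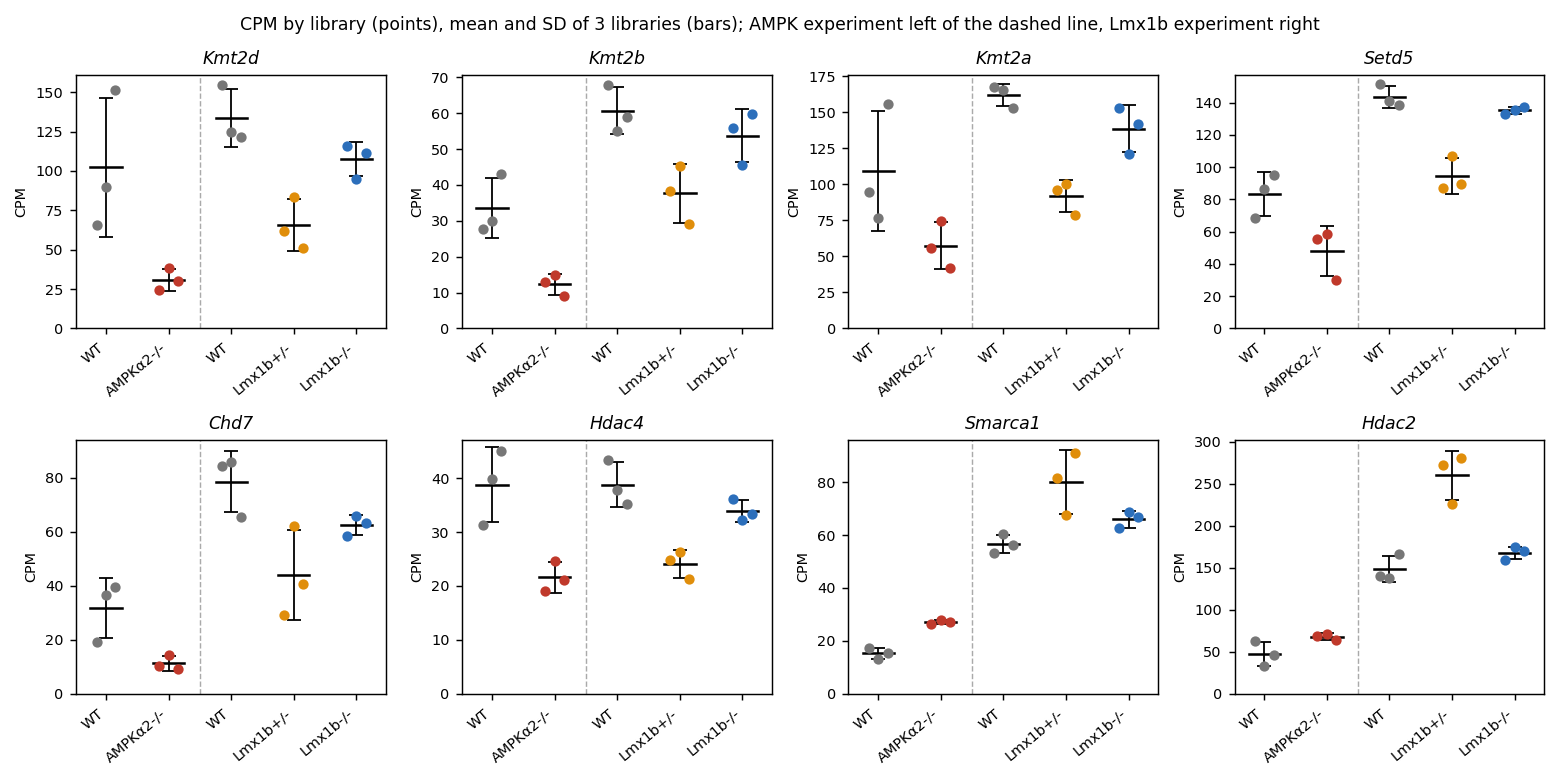
CPM of 8 genes in each library, scaled within each experiment, as points by group with the mean ± SD (n = 3). Kmt2d, Kmt2b, Kmt2a, Setd5, Chd7 and Hdac4 are lower and Smarca1 and Hdac2 higher in the libraries labelled AMPKα2-/- and in Lmx1b+/- than in the WT of the same experiment, and Lmx1b-/- lies nearer to WT. The Hdac2 difference did not pass the test in the AMPK experiment.

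In the prenatal brainstem, loss of 1 Lmx1b allele went with lower levels of chromatin genes. Relative to WT, 32 of the 77 members fell and 5 rose in Lmx1b+/- (48.1%), where 36.7% of all 21729 genes tested were called, 17.3% lower and 19.4% higher. The median log2 fold change was −0.30 for the members and −0.03 for all genes. The groups did not overlap in 42 members, 36 of them lower, against 45.3% of all genes in either direction and 21.9% lower. With length and GC trends removed the balance of calls turned to 6 lower and 8 higher, with a median of −0.07. Leaving out 1 library at a time gave 27 to 39 member calls, and 5911 to 8404 calls over all genes.

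All 7 H3K4 methyltransferase genes fell in Lmx1b+/-, with a median of −0.69 and no overlap between the groups in any of them. Kmt2d was at 155, 125 and 121 CPM in WT 1 to 3 and 61.7, 83.6 and 51.3 CPM in Lmx1b+/- 1 to 3, a 2.04-fold lower level (−1.03, SE 0.16, adjusted p = 0.000316). Kmt2a was at 168, 166 and 153 CPM in WT and 96.0, 100.2 and 79.1 CPM in Lmx1b+/- (−0.82, SE 0.12, adjusted p = 0.000152). In both genes every WT library lay above every Lmx1b+/- library, and Lmx1b+/- 3 was the lowest. Setd1b, Kmt2b, Setd1a, Kmt2c and Kmt2e followed with −0.80, −0.69, −0.66, −0.63 and −0.47, at adjusted p of 0.00122 to 0.00326. Both acetyltransferase genes fell as well. Crebbp was at 106, 102 and 91.8 CPM in WT and 64.1, 73.0 and 51.3 CPM in Lmx1b+/- (−0.67, SE 0.12, adjusted p = 0.000881), and Ep300 at 82.7, 91.3 and 72.5 and 62.6, 64.6 and 47.4 CPM (−0.50, SE 0.13, adjusted p = 0.00839). Neither pair of groups overlapped.

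Of the 9 CHD genes, 6 fell and all 9 were negative. Chd5, the neuronal NuRD ATPase, was at 248, 194 and 206 CPM in WT and 131, 134 and 108 CPM in Lmx1b+/-, without overlap (−0.80, SE 0.12, adjusted p = 0.000265). Chd7 was at 84.5, 85.9 and 65.5 CPM in WT and 29.2, 62.1 and 40.6 CPM in Lmx1b+/-, where Lmx1b+/- 1 was the lowest and Lmx1b+/- 2 came within a few CPM of WT 3 (−0.84, SE 0.20, adjusted p = 0.00633). Chd6, Chd9, Chd3 and Chd2 had −0.44, −0.41, −0.39 and −0.36. Among BAF subunits Arid1b and Arid1a, the alternative ARID subunits that define canonical BAF, fell by 0.61 and 0.60 on the log2 scale (adjusted p = 0.000412 and 0.00637). Setd5 was at 151, 141 and 138 CPM in WT and 87.0, 107 and 89.4 CPM in Lmx1b+/-, again separate (−0.60, SE 0.099, adjusted p = 0.000447). Of the 18 demethylase genes 5 fell and none rose, with Kdm6b the lowest at −0.71 (adjusted p = 0.00613). Of the 8 other SET genes 4 fell, and of the 7 other ARID genes 1 fell and 1 rose.

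The members that rose in Lmx1b+/- were Hdac2, Smarca1, Smarce1, Arid4b and Smarca5. Hdac2 was at 140.4, 138 and 167 CPM in WT and 272, 226 and 281 CPM in Lmx1b+/-, 1.75-fold higher and the most significant member of this comparison (0.81, SE 0.11, adjusted p = 0.00015). Smarca1 was at 53.4, 60.4 and 56.2 and 81.8, 67.4 and 91.2 CPM (0.50, SE 0.11, adjusted p = 0.00335), and Smarce1, which encodes the HMG-box subunit BAF57, at 68.2, 66.4 and 82.3 and 100.5, 92.6 and 95.7 CPM (0.41, SE 0.10, adjusted p = 0.0063). In these 3 genes every Lmx1b+/- library lay above every WT library. Arid4b, a SIN3 complex subunit, and Smarca5 had 0.32 and 0.31 (adjusted p = 0.0233 and 0.0286). In class IIa, Hdac4 fell from 43.4, 37.8 and 35.3 CPM to 24.8, 26.3 and 21.2 CPM (−0.69, SE 0.11, adjusted p = 0.000461) and Hdac7 had −0.56 (adjusted p = 0.0236). With length and GC trends removed, 2 deacetylases were higher (Hdac2 and Hdac5) and 0 lower.

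Other RNA moved with Lmx1b+/- too. Summed over 6 genes, erythroid markers stood at 3547 to 7511 CPM in Lmx1b+/-, 509 to 1248 CPM in WT and 1060 to 2380 CPM in Lmx1b-/-, and all 6 were called higher in Lmx1b+/- than in WT. Of all genes 19.4% were called higher and 17.3% lower in this comparison. Of 6 astrocyte markers 4 and of 7 oligodendrocyte markers 5 were called lower. Higher and lower calls were 4 and 1 of 9 hindbrain, 2 and 2 of 7 neuron, and 2 and 0 of 8 progenitor and cell cycle markers. They were 0 and 2 of 8 cerebellum, 2 and 1 of 8 skeletal muscle, and 0 and 1 of 5 microglia markers. Forebrain and meninges markers had 0 calls. Choroid plexus markers had 1 higher call of 6 and summed to 72.2 to 1675 CPM, against 219 to 361 CPM in WT. Mitochondrial genes took 9.58 to 14.7% of counts against 5.57 to 6.74% in WT. The part of these in the member differences was not tested, and in bulk tissue fewer cells of a type and less RNA per cell cannot be told apart.

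**Figure D3:**
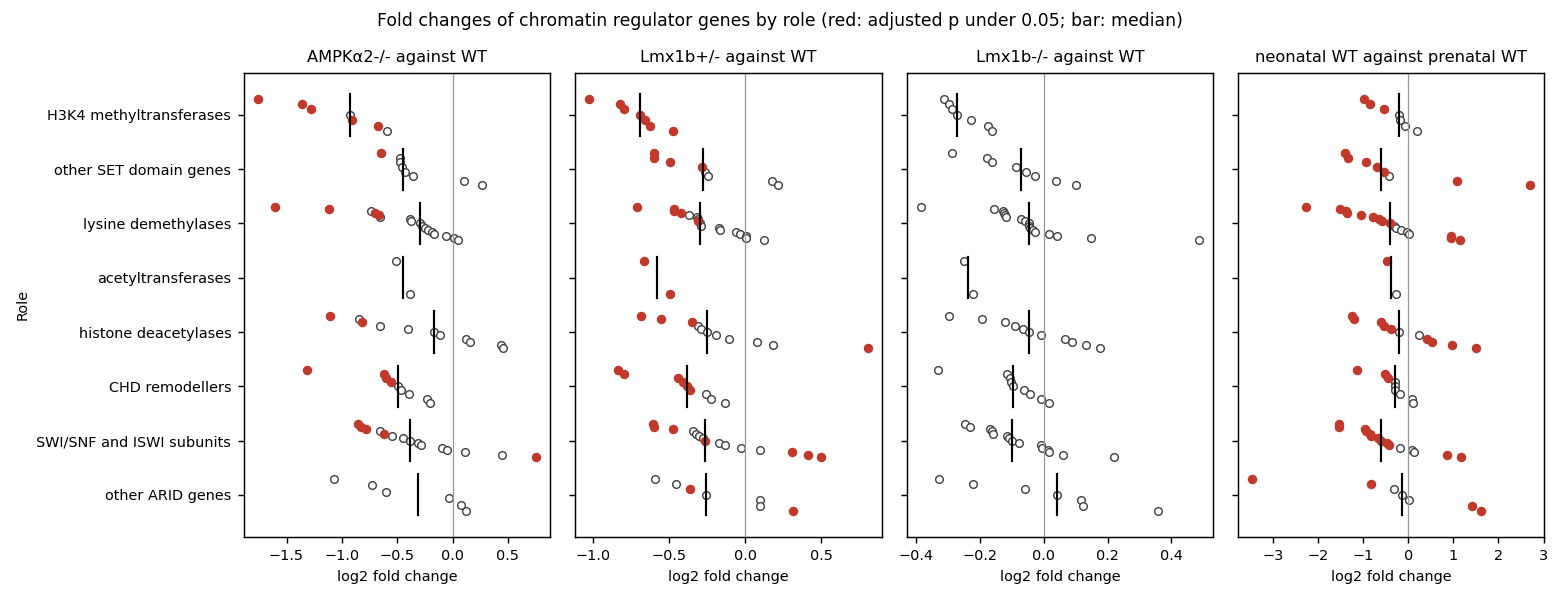
Log2 fold change of each tested gene by role in 4 comparisons, with scales that differ between panels, red for genes past an adjusted p of 0.05, grey for the others and a bar at the median of each role (Kdm5d left out). The H3K4 methyltransferases have medians of −0.93 in AMPKα2-/- and −0.69 in Lmx1b+/- relative to WT, −0.27 in Lmx1b-/- and −0.20 in newborn relative to prenatal WT.

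Loss of both Lmx1b alleles gave no member call relative to the same WT libraries. By edgeR 0 of 77 passed the adjusted threshold, with 4 at an unadjusted p below 0.05, DESeq2 gave 0 with 6 and limma 0 with 1, and over all genes 0.0184% were called. Fitting only the WT and Lmx1b-/- libraries left 0 calls but put 17 members at an unadjusted p below 0.05, and leaving out WT 3 put 12 there. Over all genes these fits put 2503 and 1807 there, against 1757, 1571 and 1078 by edgeR, DESeq2 and limma with every library. The members had a median of −0.09 (all genes 0.01) and the groups did not overlap in 14 of 77, 13 of them lower in Lmx1b-/-, against 18% of all genes in either direction and 6.09% lower. The smallest p belonged to Kmt2e at −0.30, Arid1b at −0.23 and Kdm6b at −0.39, with adjusted p of 0.538, 0.596 and 0.611. Kmt2d was at 116, 95.2 and 111 CPM in Lmx1b-/- and Hdac2 at 159, 174 and 169 CPM. For Kmt2d these lay between Lmx1b+/- and WT, with −0.31, SE 0.16, adjusted p = 0.639 relative to WT, and for Hdac2 they overlapped WT and stayed below every Lmx1b+/- library (0.18, SE 0.11, adjusted p = 0.69). The 7 H3K4 methyltransferase genes were all negative, with a median of −0.27 that no single gene carried past the threshold.

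Set directly against Lmx1b+/-, 19 members rose and 2 fell in Lmx1b-/- (27.3%), where 25.5% of all genes were called, 11.5% higher and 14% lower, so the share of members called was close to that of all genes. The members had a median of 0.23 (all genes 0.02), and 32 did not overlap between the groups, 4 of them lower in Lmx1b-/-, against 42.4% of all genes in either direction and 21.4% lower. This comparison shares the Lmx1b+/- libraries with the Lmx1b+/- and WT comparison, so the values are given side by side and not as separate evidence. Kmt2d had 0.71, SE 0.16, adjusted p = 0.00571, Chd5 0.69, SE 0.12, adjusted p = 0.00126, Kmt2a 0.60, SE 0.12, adjusted p = 0.00241 and Setd5 0.52, SE 0.099, adjusted p = 0.00218. By role, 5 of 7 H3K4 methyltransferase, 5 of 9 CHD, 3 of 18 demethylase and 2 of 11 deacetylase genes rose. The 2 that fell were Hdac2 (−0.63, SE 0.11, adjusted p = 0.00143) and Smarce1 (−0.40, SE 0.10, adjusted p = 0.0113). Hdac4 was at 36.2, 32.2 and 33.4 CPM in Lmx1b-/-, above every Lmx1b+/- library (0.49, adjusted p = 0.00639). With length and GC trends removed the direction of the calls turned, to 1 higher and 6 lower with a median of −0.01. The count fell to 10 without Lmx1b+/- 3, 8 without Lmx1b-/- 1, 14 without Lmx1b-/- 2 and 9 without Lmx1b-/- 3. Over all genes it was 3755, 3602, 4187 and 3500 in the same order, against 5544 with every library. Cell type markers moved here too, with 6 of 6 erythroid markers called lower and 6 of 7 oligodendrocyte, 4 of 6 astrocyte and 4 of 7 forebrain markers higher. Progenitor and cell cycle markers had 0 higher and 3 lower calls of 8, hindbrain 1 and 2 of 9, microglia 2 and 0 of 5, and skeletal muscle 0 and 3 of 8. Neuron and cerebellum markers had 0 calls. The part of these in the member differences was not tested.

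The AMPK and Lmx1b experiments share no library, and their lower calls overlapped. In all, 15 genes were lower in both, 75% of the 20 in AMPKα2-/- and 46.9% of the 32 in Lmx1b+/-. Over all tested genes 701 were lower in both, 77.9% of the 900 in AMPKα2-/- and 18.7% of the 3752 in Lmx1b+/-, so the share of the AMPKα2-/- calls that were also lower in Lmx1b+/- was no higher for the members than for all genes. They were the methyltransferase genes Kmt2a, Kmt2b, Kmt2d, Kmt2e, Setd1b and Setd5, the remodellers Chd3, Chd5, Chd7, Ep400 and Arid1a, the deacetylases Hdac4 and Hdac7, and the demethylases Kdm5c and Kdm6b. Kmt2d had the lowest log2 fold change of all members in both, −1.76 and −1.03. Smarca1 was the only member called higher in AMPKα2-/- and was 1 of the 5 in Lmx1b+/- (20%). With length and GC trends removed, Kmt2d was the only member lower in both, 1 of 2 in AMPKα2-/- and 1 of 6 in Lmx1b+/-. Whether the effect of the 2 genotypes differed between the experiments was not tested.

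Gene length and GC content moved with the same comparisons. Across the 75 members tested in AMPKα2-/-, Spearman's rho of the log2 fold change was −0.66 with GC content and −0.19 with length, and across all 17397 genes −0.27 and −0.41. In Lmx1b+/- relative to WT it was −0.49 and −0.40 across 77 members and −0.23 and −0.41 across all genes. These correlations are across genes, which share the same libraries and are not independent replicates. When all tested genes were divided into 5 classes by length, the median log2 fold change of the longest was −0.23 in AMPKα2-/- and −0.28 in Lmx1b+/- relative to WT, and that of the shortest 0.41 and 0.52. The members of the longest class, 44 in the AMPK and 50 in the Lmx1b experiment, had medians of −0.47 and −0.42, and the shortest class held no member. In Lmx1b-/- relative to Lmx1b+/- the signs turned, with 0.24 for all genes and 0.29 for members of the longest class and −0.45 for all genes of the shortest.

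**Figure D4:**
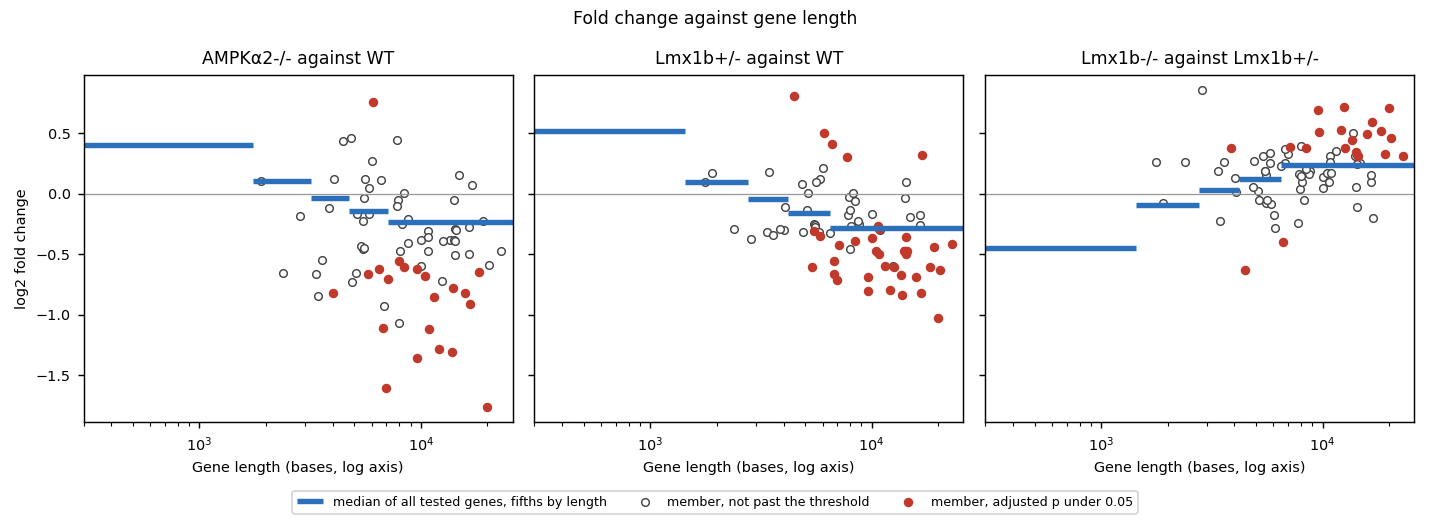
Log2 fold change of each member against gene length on a log axis in 3 comparisons, with horizontal bars for the median of all tested genes in 5 length classes (Kdm5d left out, and the outer bars are cut at the edges of the axis). The medians of all genes run from 0.41 to −0.23, from 0.52 to −0.28 and from −0.45 to 0.24 between the shortest and longest class, and the members lie mostly on the long side.

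In further fits the smooth trend on length was removed library by library, taken from log2 CPM relative to the mean of each gene. Then 8 members fell and 1 rose in AMPKα2-/- (5.67% of all genes were then called), and 10 fell and 8 rose in Lmx1b+/- (28.6%). With length and GC content removed together, 2 members fell in AMPKα2-/-, Kmt2d at −0.97 (adjusted p = 0.0147) and Chd7 at −0.94 (adjusted p = 0.0407), where 2.03% of all genes were called. In Lmx1b+/- 6 then fell and 8 rose, where 27.1% of all genes were called. The 6 were Kmt2a (−0.43), Kmt2d (−0.40), Chd5 (−0.32), Kdm1b (−0.31), Kmt2e (−0.30) and Crebbp (−0.29). The 8 included Hdac2 at 0.66 (adjusted p = 0.0007), Smarca2 at 0.48 and Smarca1 at 0.40. Member medians went from −0.45 to −0.19 in AMPKα2-/- and from −0.30 to −0.07 in Lmx1b+/-. All 7 H3K4 methyltransferase genes remained negative in both, with medians of −0.56 and −0.28, and 1 and 3 of them called. In Lmx1b-/- relative to Lmx1b+/- 1 rose and 6 fell, with a median of −0.01, where 3654 of all genes were called. The part of length and GC content in the member differences was measured by these fits alone.

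Scaling by library size alone, without the TMM factors, put the median of all genes at −0.18 in AMPKα2-/-, −0.27 in Lmx1b+/-, 0.22 in Lmx1b-/- relative to Lmx1b+/- and −0.31 in newborn relative to prenatal WT. The member calls then split as 0 higher and 31 lower, 1 and 51, and 30 and 0. Over all genes 1928, 7870 and 5033 were called in the same order. Under this scaling Hdac2 was the only member called higher in Lmx1b+/-. The rises of Smarca1 in AMPKα2-/- and of Smarca1, Smarce1, Arid4b and Smarca5 in Lmx1b+/- did not pass, and neither did the lower Hdac2 and Smarce1 in Lmx1b-/- relative to Lmx1b+/-.

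Partner genes of these enzymes, 110 in 8 lists drawn up from general knowledge of the complexes, gave 10 lower and 0 higher calls of 108 tested in AMPKα2-/- (9.26%, median −0.25), a share near the 8.94% of all genes, and 38 lower and 12 higher of 110 in Lmx1b+/- (45.5% against 36.7%, median −0.25). In AMPKα2-/- Dot1l, the H3K79 methyltransferase, had −1.44, SE 0.25, adjusted p = 0.00143. The list of Polycomb genes had 0 calls of 17 there. In Lmx1b+/- the DNA methylation list was the most one-sided of the 8, with 8 of 10 lower and 0 higher and a median of −0.52. It included Dnmt3a, a de novo DNA methyltransferase (−0.67, SE 0.10, adjusted p = 0.000222). Dpy30, a short core subunit shared by the KMT2A to KMT2D and SETD1 complexes, rose in Lmx1b+/- (1.12, SE 0.15, adjusted p = 8.92e-05) while its catalytic partners fell. The part of gene length in this contrast was not tested. Rbbp4, a histone chaperone of NuRD and SIN3, rose as well (0.64, SE 0.087, adjusted p = 0.000121). In Lmx1b-/- relative to WT 0 of the 110 were called, and relative to Lmx1b+/- 21 were higher and 10 lower, among them Dnmt3a at 0.62, Dpy30 at −0.88 and Rbbp4 at −0.47.

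More members were called between the WT groups of the 2 experiments than in any comparison of genotypes. Relative to prenatal WT, 13 members were higher and 38 lower in newborn WT (66.2%), against 51.1% of all 22327 genes tested, 25.7% higher and 25.4% lower, with a median of −0.42 (all genes −0.03). The groups did not overlap in 51 of 77, 39 of them lower in newborn WT, against 49.4% of all genes in either direction and 28.9% lower. Age, experiment and sequencing run cannot be told apart here. Summed oligodendrocyte markers, scaled within each experiment, stood at 11843 to 20571 CPM in the AMPK libraries and 184 to 342 CPM in the Lmx1b libraries. All 8 progenitor and cell cycle markers were called lower in newborn WT, and all 7 oligodendrocyte and all 5 microglia markers higher. Astrocyte markers had 4 higher and 1 lower call of 6, skeletal muscle 7 and 0 of 9, and neuron 3 and 3 of 7. Hindbrain markers had 1 and 4 of 9, forebrain 0 and 4 of 7, cerebellum 1 and 6 of 8, and erythroid 0 and 5 of 6. The part of these in the member differences was not tested. Member CPM in this comparison are on a scale common to both experiments.

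Setd7, a lysine methyltransferase for H3K4 and non-histone proteins that was counted with the other SET domain genes, was at 169, 146 and 221 CPM in newborn and 29.1, 30.6 and 25.6 CPM in prenatal WT, 6.54-fold higher (2.71, SE 0.19, adjusted p = 4.58e-10). Hdac11 was at 134, 78.7 and 123 and 48.5, 36.3 and 44.2 CPM (1.49, SE 0.16, adjusted p = 2.02e-07), and Smarca2, which encodes the BRM ATPase, at 183, 202 and 221 and 93.4, 80.7 and 93.8 CPM (1.18, SE 0.14, adjusted p = 8.65e-07). In all 3 genes the groups were far apart. Smarca4, the alternative ATPase to Smarca2, was lower in newborn WT, at 124, 135 and 148 against 246, 199 and 209 CPM (−0.68, SE 0.13, adjusted p = 0.000265). Kdm2b, which recruits Polycomb to CpG islands, was at 10.2, 7.49 and 13.4 and 69.9, 46.4 and 52.3 CPM, a 4.80-fold lower level (−2.26, SE 0.19, adjusted p = 7.5e-09). Smarca1 and Smarce1 were 2.93-fold and 2.89-fold lower, and Ehmt1, the GLP H3K9 methyltransferase, 2.53-fold lower (adjusted p = 2.36e-07). Hdac2 was at 70.6, 37.5 and 51.0 CPM in newborn and 132, 129 and 157 CPM in prenatal WT (−1.25, SE 0.16, adjusted p = 1.37e-06), while the class IIa gene Hdac5 was at 140.0, 135 and 129 and 84.3, 56.4 and 66.3 CPM (0.97, SE 0.14, adjusted p = 6.83e-06). The SWI/SNF and ISWI genes had 10 lower and 2 higher calls of 15, and the H3K4 methyltransferases 3 lower of 7 with a median of −0.20.

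The Y-linked demethylase gene Kdm5d followed another split of the libraries, and the X-linked Kdm6a followed it in the Lmx1b experiment. Kdm5d, the Y-linked H3K4 demethylase, was at 28.6, 1.42 and 37.5 CPM in prenatal WT, 32.9, 35.0 and 2.13 CPM in Lmx1b+/- and 38.1, 1.01 and 0.159 CPM in Lmx1b-/-. In the AMPK experiment it was at 0, 0 and 22.3 CPM in WT and 0, 0.0648 and 12.1 CPM in AMPKα2-/-, the last on 4 counts. Its low libraries were those high in Xist, the RNA of X inactivation, with 725 to 1269.7 CPM in the 4 Lmx1b libraries low in Kdm5d and 2.13 to 36.2 CPM in the other 5. Kdm6a, the X-linked H3K27 demethylase that escapes X inactivation, was at 39.5 to 43.7 CPM in those 4 and 26.2 to 30.1 CPM in the other 5. Kdm5c, the X-linked homologue of Kdm5d, was at 76.9, 84.8 and 65.9 CPM in WT, 58.3, 53.9 and 57.3 in Lmx1b+/- and 67.5, 75.1 and 79.6 in Lmx1b-/-. It fell in Lmx1b+/- (−0.42, SE 0.11, adjusted p = 0.00717), and its values in the 4 libraries low in Kdm5d overlapped those in the other 5. Every group held libraries of both kinds, and no label gives the sex.

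**Figure D5:**
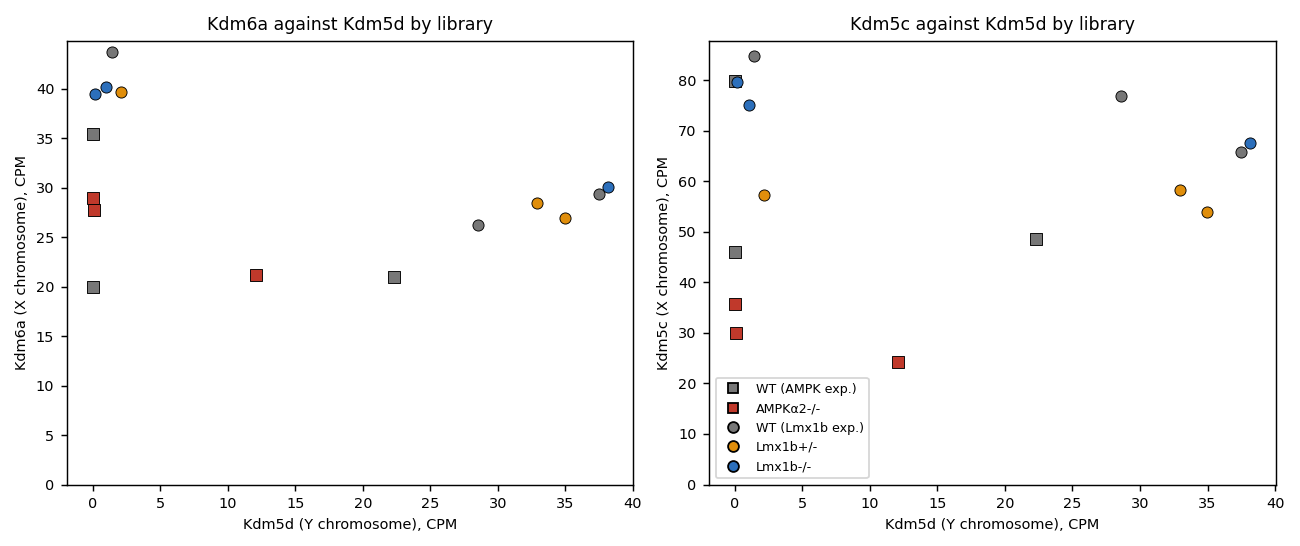
CPM of the X-linked genes Kdm6a and Kdm5c against CPM of the Y-linked gene Kdm5d, 1 point per library, by group. The 4 Lmx1b libraries low in Kdm5d have the 4 highest Kdm6a values of that experiment, 39.5 to 43.7 CPM.

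Some member counts are uncertain because another gene is nearly identical over a stretch. Gm10093 is 99.4% identical to Hdac1 and held 352 counts against 681 for Hdac1 in the AMPK libraries and 3006 against 6533 in the Lmx1b libraries. Smarca5 has 6 and Setd3 has 2 such copies. Ep400 and Kdm2b share a stretch with the processed pseudogenes Gm12928 and Gm12397. Gm12397 held 82 counts against 495 for Kdm2b in the AMPK libraries and 3105 against 16109 in the Lmx1b libraries. Kdm2b, Kmt2e, Smarcd3, Kdm1b, Chd2 and Setd1a share stretches of 99.8 to 100% identity with genes that are not such copies. Whether these overlap on the genome was not tested, and whether the counting used strand is not given in the sources used here.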

How the data were processed

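Total RNA of brainstem was extracted with TRIzol, and polyA RNA was sequenced on an Illumina HiSeq after library preparation with the NEXTflex Rapid Directional qRNA-Seq kit. The authors mapped reads with HISAT2 through systemPipeR, and the submitters' processing notes name GRCm39. The gene counter and annotation are not given in the sources used here. The authors deposited raw read counts per gene and RPKM per gene, 1 table of each per experiment. RPKM served for levels between genes, for gene length and for limma.

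CPM were computed here from the counts with TMM factors within each experiment, and on a joint scale for the WT comparison. Genes kept by filterByExpr entered quasi-likelihood fits in edgeR 4.0.16 (R 4.3.3), and the p-values of its F-test were adjusted by Benjamini-Hochberg over all genes tested in a comparison, with a threshold of 0.05. The 3 Lmx1b groups shared 1 fit. Of 57180 identifiers, 51884 (90.7%) had a symbol. Alternatives were DESeq2 1.42.0, limma 3.58.1 on log2(RPKM + 1), which understates changes of low genes, other scalings and filters, a replicate block, leaving out libraries, and removal of trends on length or GC content. For the trends, the log2 CPM of each library relative to the gene mean was smoothed against length or GC content by lowess (span 0.3). The smooth curve was added to the offset of that library, for both trends length first. GC content came from the longest GENCODE M21 transcript of each gene, and gene length from the ratio of counts to RPKM. Near-identical copies were sought with blastn 2.17.0. The scripts were tested on simulated data. The deposited tables name WT 3 of each experiment with a suffix or another number than the labels.

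The members and lists were chosen with earlier results of these data known. Named were, in each comparison, at most the 10 members of smallest p in each direction past the threshold, or the 3 of smallest p where fewer than 3 passed, up to 2 of each other list, and a set of well-known members whatever their values. Kdm2b and Kdm4a in AMPKα2-/-, Kdm1b and Kdm5a in Lmx1b+/-, Kdm3b in Lmx1b-/-, and Smarcc2 and Arid3c for their level, were named after their values were seen.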

Additional observations from a re-analysis of the deposited data

How the results depend on the processing

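Of the results on single members, 1101 kept their side of the threshold over the alternatives in AMPKα2-/- relative to WT, 177 lost and 27 gained a call. The corresponding numbers were 1211, 106 and 62 in Lmx1b+/- relative to WT, 1383, 0 and 1 in Lmx1b-/- relative to WT, 1222, 107 and 53 in Lmx1b-/- relative to Lmx1b+/-, and 1288, 81 and 45 between the WT groups. A turn of sign was counted apart only where the value was called in the fit reported or in the alternative. Members without a call could change direction and still count as kept. In AMPKα2-/- 13 members were positive in the fit reported and 25 without both trends, and in Lmx1b+/- 16 and 31.

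In AMPKα2-/- the number of members called, 21 in the fit reported, was 8 with DESeq2, 0 with limma on log2 RPKM (pseudocount 1, 30 at an unadjusted p below 0.05), 11 when 10 counts were required of each library (fewer genes are then tested), 9, 5 and 2 with the length trend, the GC trend and both removed, 0 without both shallow libraries (33 at an unadjusted p below 0.05 in edgeR) and 2 to 35 when 1 library was left out, with 2 without WT 3 and 35 without WT 1. Over all genes the calls in the same order were 1555, 667, 0, 825, 987, 1080, 349 and 6, and 548 to 2958 with 1 library left out. The median was −0.63 with library sizes alone, −0.24 without the length trend, −0.19 without both trends and −0.59 to −0.24 with 1 library left out. In Lmx1b+/- relative to WT, 18 members were called without the length trend, 14 without both trends and 16 at 1.5-fold or more. The median was −0.44 with limma, −0.53 with library sizes alone, −0.12 without the length trend and −0.068 without both. In Lmx1b-/- relative to WT, testing all genes with any count called 1 member, Kdm5d. In Lmx1b-/- relative to Lmx1b+/- the count was 7 without the length trend, 7 without both trends, 5 at 1.5-fold or more and 8 to 23 with 1 library left out, and the median 0.43 with library sizes alone, 0.038 without the length trend and −0.0067 without both. Between the WT groups, the filter of 10 counts per library left 25 calls and a median of −0.58, and the median was −0.62 with limma and −0.70 with library sizes alone. Where no construction of the alternative shows it, the cause was not tested.

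The sign of a called value turned for 8 results. Without the length trend Kdm5a was at 0.29, Arid2 at 0.010 and Chd9 at 0.0016 in Lmx1b+/- relative to WT, and Chd9 at −0.040 in Lmx1b-/- relative to Lmx1b+/-. Without both trends Hdac5 was at 0.29 and Chd3 at 0.027 in Lmx1b+/- relative to WT, and Kdm3b at −0.0067 in Lmx1b-/- relative to Lmx1b+/-. Under the filter of 10 counts per library Arid4b was at −0.29 between the WT groups.

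Libraries of the same number in the labels shared only a number, with correlations of their deviations from the group mean between −0.177 and 0.148. With the number as a replicate block 12 members were called in AMPKα2-/-, 35 in Lmx1b+/- and 0 in Lmx1b-/- relative to WT, 19 in Lmx1b-/- relative to Lmx1b+/- and 49 between the WT groups. Depth limits single members in WT 2 and AMPKα2-/- 3, which held 291212 and 335986 counts.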
